A study of Mus musculus with 4 samples.

Results

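The interferon gamma and CXCR3 axis was examined as 7 genes, chosen by symbol: Ifng, its receptor subunits Ifngr1 and Ifngr2, the chemokines Cxcl9, Cxcl10 and Cxcl11, and their receptor Cxcr3. A row was found for 6 of the 7 among the 19465 genes in every count matrix, and Cxcl11 was not analysed here. They were read in 4 paraffin-embedded, formalin-fixed heart sections of wild type FVB/NJ mice by Visium, which counts UMIs (unique molecular identifiers, marking captured molecules) per gene in spots on a fixed grid, each spot a small region that can hold several cells. All mice had received a MyHCα peptide (from the alpha heavy chain of cardiac myosin) as immunization, and dual immune checkpoint inhibitors (ICIs), antibodies to PD-1 and CTLA-4. In 2 sections, called the antibody sections, an antibody neutralizing IL-17A had been given as well, and the other 2, the ICI-alone sections, came from mice without it, for which myocarditis is recorded. Each group has 1 section from batch 1 (replicate 1) and 1 from batch 2 (replicate 2). No untreated section was analysed here. Whether each section is from its own animal is not stated, and the p-values reflect only how far these sections differ from each other, which may be technical.

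Interferon gamma is made mainly by activated T cells and natural killer cells. It binds a receptor of IFNGR1 and IFNGR2 chains, which signals through the kinases JAK1 and JAK2 and induces, among many genes, the chemokines CXCL9, CXCL10 and CXCL11. These chemokines bind CXCR3 on activated T cells and natural killer cells and draw them into inflamed tissue. In myocarditis this loop is known as a route by which lymphocytes gather in the heart muscle.

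In the mm10 build (GRCm38.p6), Cxcl9 (ENSMUSG00000029417) spans chromosome 5, 92321331 to 92328079, and Cxcl10 (ENSMUSG00000034855) lies beside it at 92346638 to 92348889. The Cxcl11 locus follows at 92359544 to 92363296 and is annotated there as a transcribed pseudogene. That label belongs to the build, and the state of the gene in FVB/NJ mice was not examined. Ifng (ENSMUSG00000055170) spans chromosome 10, 118441046 to 118445894, and Ifngr1 (ENSMUSG00000020009) the same chromosome, 19591949 to 19610229. Ifngr2 (ENSMUSG00000022965) is on chromosome 16, 91547059 to 91564007, and Cxcr3 (ENSMUSG00000050232) on chromosome X, 101731535 to 101734147.

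The 250 bases before the starts of Cxcl9 and Cxcl10 are shown because both ligands were higher around Ifng spots, while of the pair Cxcl9 alone passed between the treatments over whole sections. They are from RefSeq (GRCm38.p6), at chr5:92328080-92328329 and chr5:92348890-92349139, both on the minus strand and written 5′ to 3′. Capitals mark matches, searched on both strands, to an interferon-stimulated response element (ISRE, searched as GAAA, any 2 bases, GAAA) or an NF-kB element (GGGANTTCC); a gamma-activated site (GAS, TTCNNNGAA), an element known from interferon gamma-induced genes, was searched as well.
Cxcl9: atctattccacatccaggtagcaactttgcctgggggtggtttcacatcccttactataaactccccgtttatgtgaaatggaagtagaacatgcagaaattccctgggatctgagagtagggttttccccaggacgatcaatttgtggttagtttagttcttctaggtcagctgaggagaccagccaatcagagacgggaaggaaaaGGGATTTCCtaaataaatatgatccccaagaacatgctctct
Cxcl10: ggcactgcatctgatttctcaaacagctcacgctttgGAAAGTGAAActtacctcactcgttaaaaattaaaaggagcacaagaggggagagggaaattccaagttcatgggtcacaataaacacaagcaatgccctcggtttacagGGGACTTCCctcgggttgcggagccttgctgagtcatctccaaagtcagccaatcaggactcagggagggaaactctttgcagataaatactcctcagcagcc
The Cxcl9 window held 1 NF-kB match, at positions -42 to -34 relative to the annotated start. The Cxcl10 window held 1 ISRE match at -213 to -204 and 1 NF-kB match at -103 to -95, and the marked matches do not overlap. Neither window held the GAS letters, which says only that these letters are not in these windows. Other forms of the ISRE and NF-kB elements were not searched, so the marked matches need not be the only ones. Among all 32851 windows of this length, 7.02% held a GAS match, 2.98% an ISRE match and 1.43% an NF-kB match.

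The sections held 2503 to 3052 spots and 33005923 to 73167202 UMIs, with the antibody sections shallower (47882576 and 33005923 UMIs, against 73167202 and 66255242 with ICIs alone). Median UMIs per spot were 18342 and 12298 in the antibody sections and 27912 and 20623 in the ICI-alone sections. Spot barcodes are those of the slide, so sections share 2040 to 2239 of them by design. Cardiomyocyte markers were abundant throughout, with a summed level of 65072 and 54334 CPM (counts scaled to one common library total) in the antibody sections and 40337 and 25136 CPM with ICIs alone. The T cell list (11 of 11 genes detected) summed to 117 and 126 CPM in the antibody sections and 96.7 and 90.6 CPM with ICIs alone. The natural killer and cytotoxic list (8 of 9 genes detected) summed to 98.6 and 109 CPM, against 79.9 and 67.6 CPM. Its Klrb1c was at 0 in all 4 sections. The probe set is not known, so this 0 is not read as a lack of natural killer cells.

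The first question was how the axis differed over whole sections when IL-17A was neutralized. Ifng had 17.4 and 17.4 CPM in antibody replicates 1 and 2, against 8.75 and 7.75 CPM in ICI-alone replicates 1 and 2, from 833, 611, 585 and 527 UMIs in that order. The antibody sections lay close together and above both ICI-alone sections. These levels are CPM scaled by TMM, edgeR's trimmed-mean normalization. Ifng averaged 17.4 ± 0.0203 CPM in antibody sections and 8.25 ± 0.710 CPM in ICI-alone sections (SD, n = 2 each), a log2 fold change of 1.07 ± 0.16 (SE, adjusted p = 0.0219, edgeR quasi-likelihood test with Benjamini-Hochberg adjustment). Within batches it was 0.99 and 1.16. In whole sections, more cells of a type and more RNA per cell cannot be told apart.

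Cxcl9, a ligand induced chiefly by interferon gamma, had 13.7 and 23.1 CPM in the antibody sections, against 7.51 and 9.12 CPM in the ICI-alone sections. Both antibody sections were above both ICI-alone sections, with antibody replicate 2 the highest. The means were 18.4 ± 6.60 and 8.31 ± 1.14 CPM (antibody and ICI alone, SD, n = 2 each; log2 fold change 1.14 ± 0.26, edgeR adjusted p = 0.0384; 0.87 and 1.34 within batches). Cxcl10, which is also induced by type I interferons and NF-kB, had 158 and 259 CPM in the antibody sections and 152 and 223 CPM in the ICI-alone sections. These groups overlapped and the batches stood further apart than the treatments (log2 fold change 0.15 ± 0.29, edgeR adjusted p = 0.715).

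Thus 2 of the 6 measured genes, Ifng and Cxcl9, rose and 0 fell, where 3.03% of the 18817 genes tested rose and 8.81% fell. With the batch as a replicate block 3839 genes passed in place of 2229, with no change of call among the 6. Scaled by library size alone, 840 genes rose and 1029 fell, against 571 and 1658 with TMM. Leaving out single sections took the count from 329 (without antibody replicate 1) to 4479 (without ICI-alone replicate 1), and it was 515 without antibody replicate 2. The call of Ifng was lost without antibody replicate 1 (adjusted p = 0.0598) and that of Cxcl9 without antibody replicate 2 (adjusted p = 0.137).

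The receptor subunits did not pass the threshold. Ifngr1, the ligand-binding chain, had 97.5 and 79.7 CPM in the antibody sections, against 111 and 125 CPM in the ICI-alone sections. Both antibody sections were lower (log2 fold change -0.41 ± 0.17, edgeR adjusted p = 0.133). Ifngr2, the chain needed for signalling, had 328 and 268 CPM in the antibody sections and 298 and 219 CPM in the ICI-alone sections, with overlap between the groups (0.21 ± 0.23, edgeR adjusted p = 0.526). Cxcr3, the receptor of the ligands, was sparse, at 130, 65, 185 and 140 UMIs or 2.71 and 1.85 CPM in antibody sections and 2.77 and 2.06 CPM in ICI-alone sections. Its groups overlapped too (-0.07 ± 0.29, edgeR adjusted p = 0.866), and at this depth a difference of that size could not be detected.

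**Figure D1:**
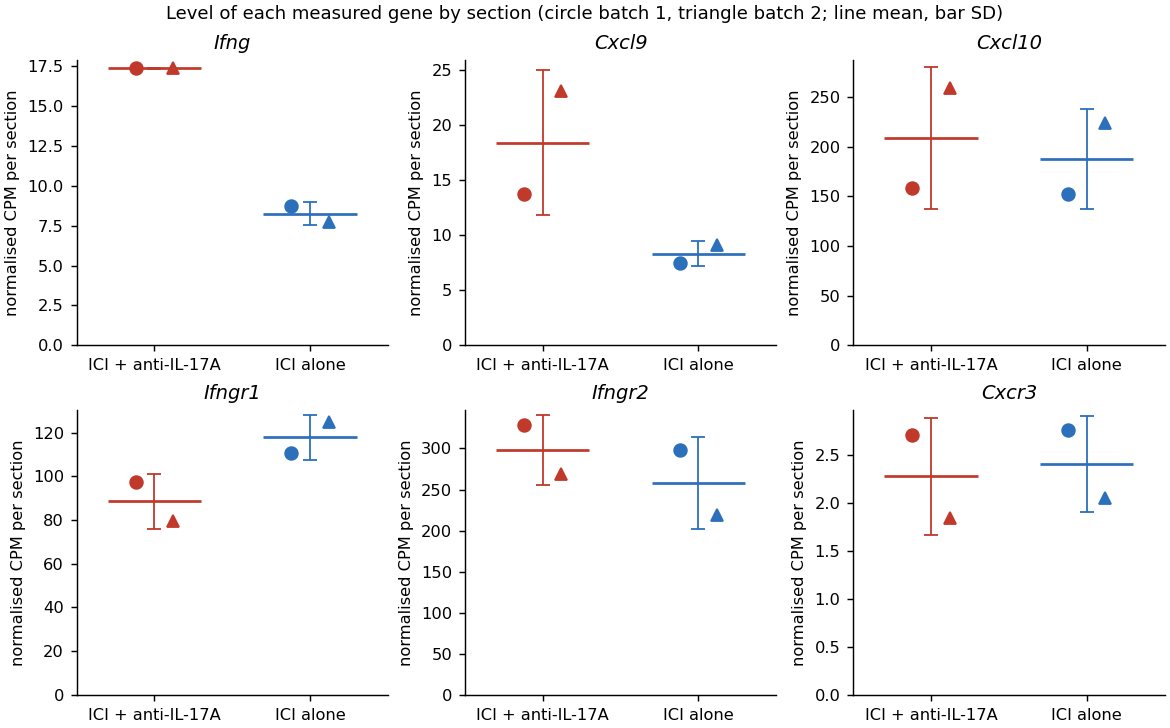
TMM-normalised CPM of the 6 measured genes (vertical axes, from 0) in antibody sections (left, red) and ICI-alone sections (right, blue), with circles for batch 1, triangles for batch 2, and lines and bars for mean and SD (n = 2 each). Ifng (17.4 and 17.4, against 8.75 and 7.75 CPM) and Cxcl9 separate the groups upward, Ifngr1 separates them downward without passing the threshold, and the other 3 genes overlap.

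Cell type markers moved between the groups as well, where 3.03% of all genes tested rose and 8.81% fell. Per 100 UMIs of the T cell list, Ifng had 14.8 and 14.7 UMIs in the antibody sections, against 8.27 and 8.78 in the ICI-alone sections. That is 14.8 ± 0.0870 against 8.52 ± 0.363 (SD, n = 2 each; exact permutation p = 0.333, two-sided, the smallest that 2 against 2 sections can give). Of the T cell list 0 of 11 genes passed in either direction (median log2 fold change 0.26, against 0.09 over all genes), and of the natural killer and cytotoxic list 1 of 8 tested rose, Gzma, a granzyme gene (23.0 ± 2.22 against 11.9 ± 1.39 CPM, edgeR adjusted p = 0.0237).

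Per 100 macrophage and monocyte UMIs, Cxcl9 had 2.13 and 3.23 UMIs in the antibody sections, against 0.565 and 0.575 in the ICI-alone sections. In that list 8 of 9 genes fell (median log2 fold change -1.12) with summed levels of 644 and 762 CPM in the antibody sections, against 1214 and 1628 CPM, and 6 of 8 neutrophil genes fell (median -2.64). Of the fibroblast list 4 of 6 fell (Col1a1, a collagen gene, -3.66), with summed levels of 2010.5 and 2275 CPM in the antibody sections, against 7441 and 16473 CPM. In smooth muscle 2 of 4 fell, and of the mesothelial genes 2 of 3 rose. These counts stand beside 3.03% risen and 8.81% fallen over all genes. The part of these shifts in the levels of the axis was not tested. Relative to each other, the ligands had 1154 and 1124 Cxcl10 UMIs per 100 Cxcl9 UMIs in the antibody sections, against 2028 and 2451 with ICIs alone. Cxcl9 per 100 Ifng UMIs overlapped between the groups (79.0 and 133, against 85.8 and 118).

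Genes of the pathway were then read from lists of its signalling parts and targets, whose counts stand beside 3.03% risen and 8.81% fallen over all genes. Of 12 genes of interferon gamma receptor signalling, 3 fell and 0 rose (median log2 fold change -0.07): Ptpn6, the phosphatase SHP-1 of blood cells (58.1 ± 10.2 CPM in antibody sections and 147 ± 0.450 CPM in ICI-alone sections, -1.34 ± 0.17, edgeR adjusted p = 0.0210), Ptpn2, a phosphatase that acts on JAK1 (-0.57), and Socs3, a cytokine feedback inhibitor (-0.90). Socs1, the feedback inhibitor of the interferon gamma receptor, had 205 ± 30.4 and 144 ± 16.5 CPM (antibody and ICI alone) and did not pass (0.51, adjusted p = 0.112).

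None of 24 measured interferon gamma target genes passed in either direction by edgeR, with a median log2 fold change of 0.30 against 0.09 over all genes. The smallest p belonged to Cd274, which encodes PD-L1 (0.64 ± 0.20, adjusted p = 0.0786), and the guanylate-binding protein genes Gbp6 (1.33 ± 0.44, 0.0848), Gbp4 (0.60, 0.135) and Gbp3 (0.63, 0.138). Of 15 inducers of Ifng (3.03% of all genes rose and 8.81% fell), 2 rose, the transcription factor genes Eomes (1.22 ± 0.25, edgeR adjusted p = 0.0304) and Tbx21 (0.96 ± 0.23, adjusted p = 0.0434), and 1 fell, Il18, a cytokine of macrophages (-1.01 ± 0.20, adjusted p = 0.0304). Il12a, a subunit of IL-12, had 0.96 ± 0.27 and did not pass (adjusted p = 0.0589).

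Of 16 tested genes of other lymphocyte chemokine axes, 1 rose and 4 fell. The counts in this paragraph stand beside 3.03% risen and 8.81% fallen over all genes. Ccl17, a ligand of CCR4, rose (73.2 ± 37.9 against 15.7 ± 3.26 CPM, log2 fold change 2.22 ± 0.35, edgeR adjusted p = 0.0225), whereas those that fell included the receptor genes Cxcr4 (-0.92) and Cxcr6 (-0.72). Among 4 genes that process or scavenge CXCR3 ligands, the neutrophil proteases Mmp8 (-2.55 ± 0.31, edgeR adjusted p = 0.0210) and Mmp9 (-3.16 ± 0.55, adjusted p = 0.0237) fell. Dpp4, a peptidase that truncates the ligands (0.48, adjusted p = 0.232), and Ackr3, a scavenger receptor of CXCL11 and CXCL12 (0.19, adjusted p = 0.495), did not pass. In the list of TNF and NF-kB, 0 of 13 genes passed (median -0.23).

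**Figure D2:**
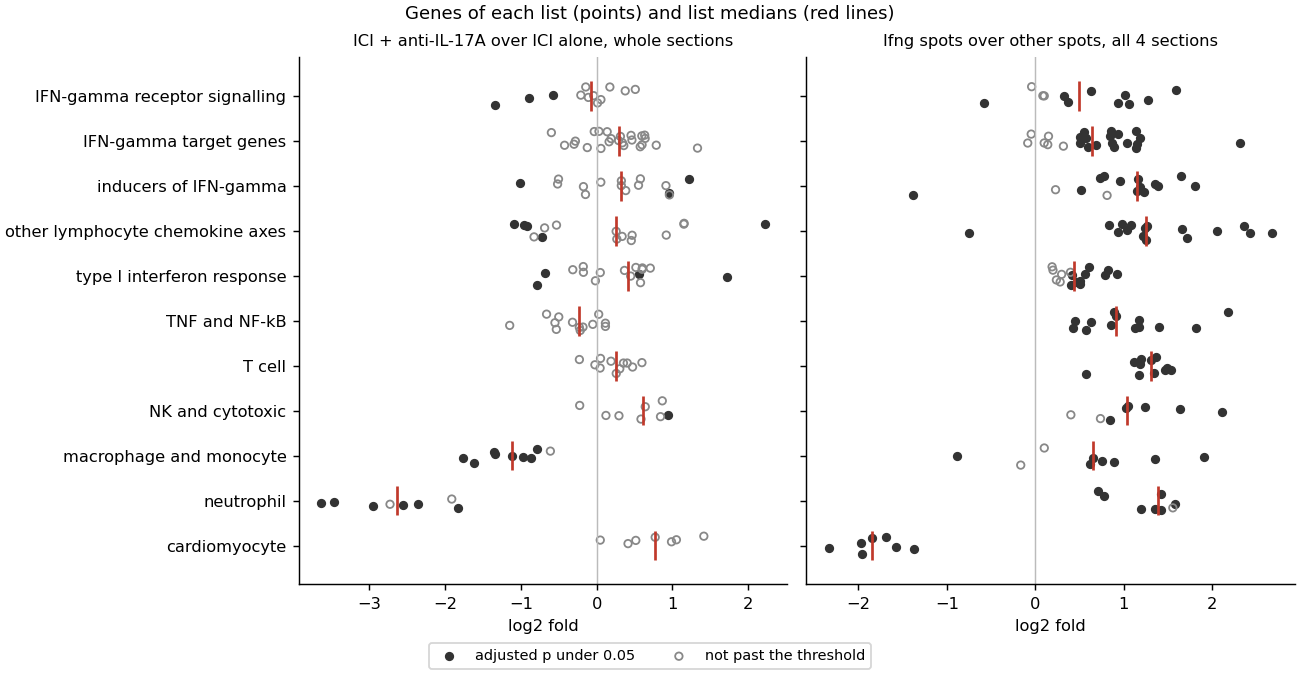
Log2 fold of each listed gene (horizontal axes) for antibody over ICI-alone whole sections (left) and for Ifng spots over other spots (right), with filled points past an adjusted p of 0.05 and red lines at list medians. On the left few pathway genes pass and the macrophage and neutrophil lists lie below 0 (medians -1.12 and -2.64); on the right 18 of 24 interferon gamma targets pass upward and all 7 cardiomyocyte genes pass downward.

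In the authors' deposited table, Moran's I, a score of spatial clustering that is near 0 for a random pattern, was for Cxcl10 0.775 and 0.678 in the antibody sections and 0.716 and 0.681 in the ICI-alone sections. For Ifng it was 0.428 and 0.315 in the antibody sections, against 0.271 and 0.163 with ICIs alone, and for Cxcl9 0.444 and 0.305, against 0.207 and 0.180. Both were higher in both antibody sections. The CPM of both genes was higher there too, and the part of abundance in these scores was not tested. The authors' deposited scores of Ifngr1 (0.0672 to 0.148), Ifngr2 (0.0339 to 0.175) and Cxcr3 (0.0183 to 0.0492) are not ranked against these, since the genes differ in abundance.

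Ifng was concentrated in few spots. In the antibody sections 61 and 38 spots (2.34% and 1.47%) held 50% of its UMIs, and in the ICI-alone sections 48 and 57 spots did (1.92% and 1.87%). Spots of at least 5 Ifng UMIs numbered 49 and 29 in the antibody sections and 27 and 21 in the ICI-alone sections, with at most 24, 23, 21 and 16 UMIs in a spot. For Cxcl9 such spots numbered 12 and 17 in the antibody sections and 0 and 1 in the ICI-alone sections, although the ICI-alone sections were deeper. Cxcr3 never exceeded 3 UMIs in a spot.

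To compare spots at equal depth, each was thinned at random to 5000 UMIs. An Ifng spot is one with at least 1 Ifng UMI after thinning. Ifng spots made up 5.44% (136 of 2499, 95% Wilson interval 4.62 to 6.40) and 4.67% (119 of 2548, 3.92 to 5.56) in the antibody sections. In the ICI-alone sections they made up 3.17% (79 of 2492, 2.55 to 3.93) and 2.69% (82 of 3048, 2.17 to 3.33). The means were 5.06 ± 0.546% against 2.93 ± 0.339% (SD, n = 2 each, exact permutation p = 0.333). These intervals cover counting error within a section only. In spots with no T cell or natural killer UMI the share was 1.28%, 1.42%, 1.19% and 1.72%, in the order antibody replicates 1 and 2, then ICI-alone replicates 1 and 2, so there the groups overlapped. Without thinning, 12.5% and 10.3% of spots had an Ifng UMI in the antibody sections, against 10.9% and 9.57% in the deeper ICI-alone sections.

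Cxcl9 was found in 5.08% and 9.11% of thinned spots in the antibody sections, against 3.05% and 3.74% with ICIs alone. Both antibody sections were higher, and the difference of the means, 3.70 percentage points, was 1.69 without antibody replicate 2. In spots without a T cell or natural killer UMI it was in 0.805% and 4.56%, against 1.67% and 2.29%, with overlap. Cxcl10 was in 25.9% and 43.1% of spots in the antibody sections and 30.0% and 40.9% in the ICI-alone sections. Ifngr2 was in 76.8% and 75.4%, against 75.3% and 66.1%, and Ifngr1 was in 36.6% and 31.6%, against 38.2% and 45.7%. Cxcr3 was in 0.981% to 1.28% of spots in every section.

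**Figure D3:**
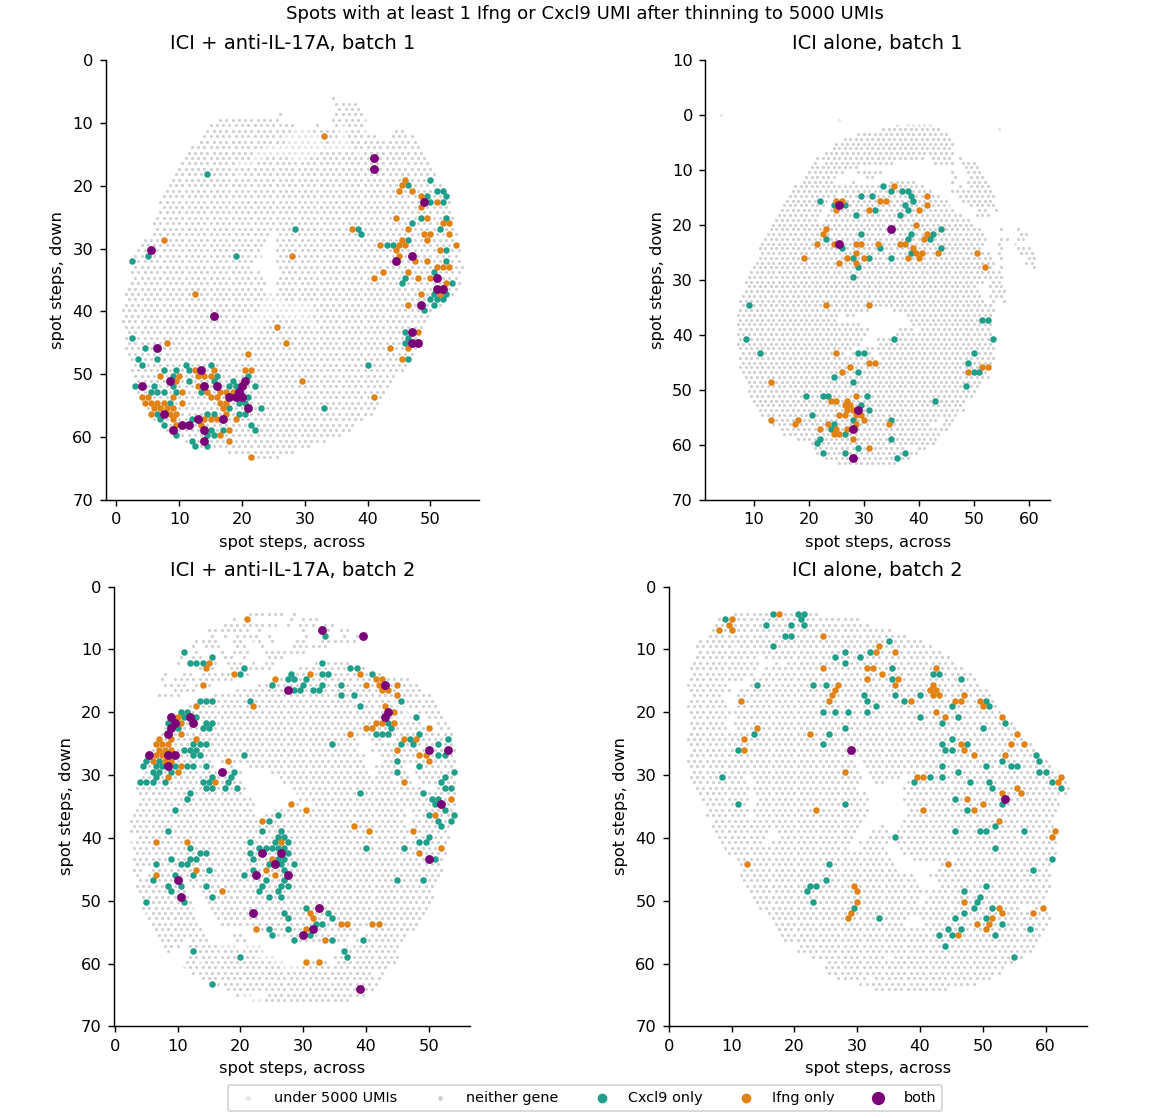
Position of spots on the grid (axes in spot steps) in antibody sections (left) and ICI-alone sections (right), with batch 1 above, coloured by whether the spot had Ifng, Cxcl9 or both after thinning to 5000 UMIs. Spots with both genes numbered 35 and 33 in the antibody sections and 6 and 2 in the ICI-alone sections, or 23 and 34 against 3 and 9 with another random seed.

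An Ifng spot adjoined another Ifng spot in 65.4% and 48.7% of cases in the antibody sections and in 57.0% and 53.7% in the ICI-alone sections, against 17.3%, 16.3%, 12.4% and 11.3% of the other spots that adjoined one, in the same order. Cxcl9 spots adjoined another Cxcl9 spot in 71.7% and 72.0% in the antibody sections, against 38.2% and 30.7% with ICIs alone. Cxcl9 spots were also more frequent in the antibody sections, and the share of other spots that adjoined one was 16.1% and 27.5%, against 14.5% and 18.0%.

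The second question was how the ligands lay relative to Ifng. In the same spot, Cxcl9 was detected in 25.7% (35 of 136) and 27.7% (33 of 119) of Ifng spots in the antibody sections, against 7.59% (6 of 79) and 2.44% (2 of 82) in the ICI-alone sections. In the other spots it was detected in 3.89% and 8.19%, against 2.90% and 3.78%. The share in Ifng spots was thus 6.61 and 3.38 times that in other spots in the antibody sections, and 2.62 and 0.646 times in the ICI-alone sections. The ICI-alone values rest on few spots and moved with the random draw: with another seed ICI-alone replicate 2 had 9 of 76 Ifng spots with Cxcl9, a ratio of 3.35, and the others 4.91, 3.56 and 2.18. Without thinning the ratios were 6.82 and 3.78 in the antibody sections and 3.59 and 2.73 in the ICI-alone sections.

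Cxcl10 accompanied most Ifng spots in each section. It was found in 74.3% and 82.4% of them in the antibody sections and in 65.8% and 75.6% in the ICI-alone sections, against 23.1%, 41.1%, 28.8% and 40.0% of other spots, in that order. Read from the ligand, 27.6% and 14.2% of Cxcl9 spots in the antibody sections held Ifng, against 7.89% and 1.75% in the ICI-alone sections, where 5.44%, 4.67%, 3.17% and 2.69% of all spots did, in that order. With another seed these shares of Cxcl9 spots were 21.1% and 16.3%, against 4.69% and 7.89%. Within 1 step of an Ifng spot lay 74.8% and 45.3% of Cxcl9 spots in the antibody sections and 39.5% and 26.3% in the ICI-alone sections, where 21.8%, 20.2%, 15.2% and 13.7% of all spots did. Cxcr3 was found in 1 to 5 Ifng spots per section.

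**Figure D4:**
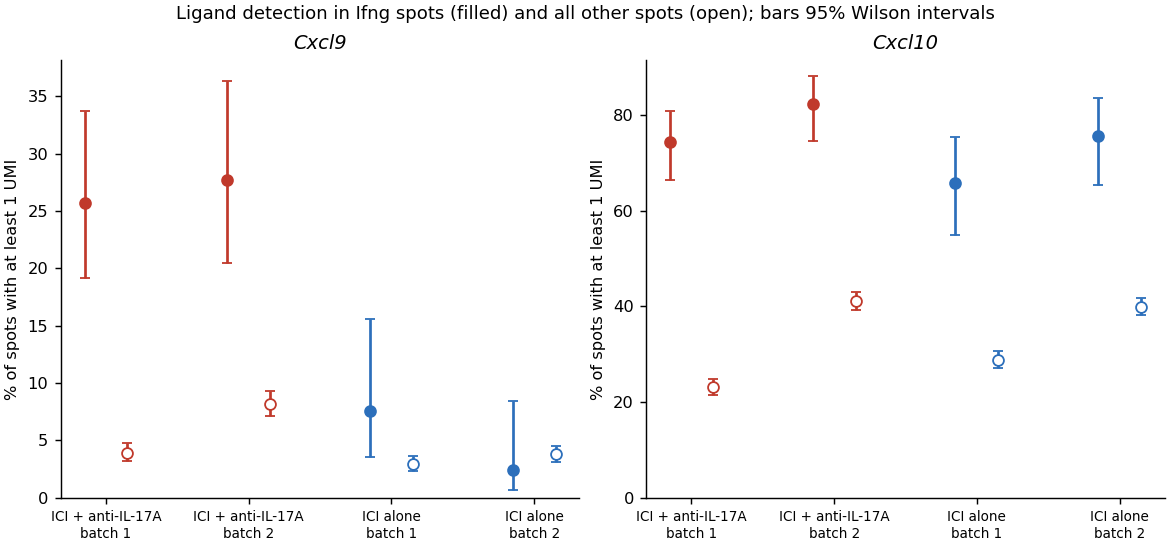
Share of Ifng spots (filled) and of all other spots (open) with at least 1 Cxcl9 UMI (left) or Cxcl10 UMI (right), in percent from 0, for antibody sections (red, left) and ICI-alone sections (blue, right), with 95% Wilson intervals. For Cxcl9 the Ifng spots stand above the other spots in both antibody sections (25.7% and 27.7%, against 3.89% and 8.19%) and in ICI-alone replicate 1 (7.59% against 2.90%), where the intervals overlap, and in ICI-alone replicate 2 the order depends on the random draw. For Cxcl10 they stand above in all 4 sections.

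Ifng spots held more T cell transcripts, so detection was also read within classes of the number of T cell list UMIs in the thinned spot. These classes are broad and come from sparse counts, so T cell content is not equal within them, and a spot at 0 can still hold T cells. In spots with 1 to 2 T cell list UMIs, Ifng was found in 11.4% and 8.26% in the antibody sections, against 5.74% and 4.01% with ICIs alone. In spots with 3 or more it was found in 23.5% and 18.6%, against 12.3% and 8.62%, and in spots with 0 in 2.00% and 2.20%, against 1.82% and 2.01%. The share of spots in these classes was close between groups at 0 (70.2% and 67.9%, against 70.5% and 70.3%) and higher in the antibody sections at 3 or more (5.28% and 5.06%, against 2.93% and 1.90%).

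At 1 to 2 T cell UMIs, Cxcl9 was found in 27.1% and 26.3% of Ifng spots and 8.47% and 13.3% of other spots in the antibody sections. In the ICI-alone sections it was found in 5.26% and 2.94% of Ifng spots and 4.81% and 5.90% of the others, from 2 and 1 positive spots. Cxcl10 in these spots was found in 80.0% and 87.7% of Ifng spots in the antibody sections and 76.3% and 76.5% in the ICI-alone sections, against 41.6%, 57.5%, 44.6% and 49.0% of the others. At 3 or more T cell UMIs the shares of Cxcl10 were not higher in Ifng spots of the antibody sections (80.6% and 79.2% of Ifng spots, against 82.2% and 84.8% of the others). In the ICI-alone sections, from 9 and 5 Ifng spots, they were 55.6% and 100% of Ifng spots, against 68.8% and 56.6% of the others. Cxcl9 at 3 or more was in 32.3% and 33.3% of Ifng spots, against 19.8% and 24.8% of the others, in the antibody sections, and in 22.2% and 0%, against 9.38% and 5.66%, with ICIs alone. At 0 T cell UMIs Cxcl9 was in 17.1% and 26.3% of Ifng spots, against 1.51% and 5.26% of the others, in the antibody sections, and in 6.25% and 2.33%, against 1.97% and 2.90%, with ICIs alone.

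UMIs of all genes were next summed over Ifng spots and over the other spots of each section and compared with the section as a block. Ifng itself chose the spots and was left out. Both ligands rose in Ifng spots. Cxcl9 had 51.9 and 63.5 CPM in Ifng spots and 11.9 and 22.3 CPM in other spots of the antibody sections, and 20.2 and 18.0 CPM against 6.87 and 9.04 CPM in the ICI-alone sections. It was higher in Ifng spots of every section (log2 fold change 1.60 ± 0.17, edgeR adjusted p = 0.000121). Cxcl10 had 493 and 583 CPM against 146 and 260 CPM in the antibody sections, and 380 and 449 CPM against 141 and 221 CPM in the ICI-alone sections (1.34 ± 0.13, edgeR adjusted p = 9.88e-05).

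Ifngr2 fell in Ifng spots, with 200.4 and 223 CPM against 367 and 293 CPM in the antibody sections and 253 and 202 CPM against 298 and 225 CPM in the ICI-alone sections (log2 fold change -0.41 ± 0.13, edgeR adjusted p = 0.0265). Ifngr1 (0.08, adjusted p = 0.573) and Cxcr3 (0.56 ± 0.28, adjusted p = 0.138) did not pass. Among the 5 genes, then, 2 rose and 1 fell, where 22.2% of 14274 genes tested rose and 22.1% fell (4129 and 2382 genes with library size alone, against 3166 and 3151 with TMM). Median UMIs per spot were higher in Ifng spots of each section (22401 against 18492, 15506 against 12280, 39649 against 27674 and 26575 against 20461, in the order above).

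When both spot classes were limited to spots with a T cell UMI, an alternative added after the data were seen, Cxcl9 (0.90, adjusted p = 9.23e-06) and Cxcl10 (0.85, adjusted p = 1.56e-06) still passed by edgeR with smaller folds. Ifngr2 then did not (-0.23, adjusted p = 0.0529), nor without ICI-alone replicate 1 or antibody replicate 2, nor when scaled by library size alone. The number of genes past the threshold was 4173 in place of 6317.

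Around this axis, most T cell, cytotoxic and interferon genes rose in Ifng spots, where 22.2% of all genes tested rose and 22.1% fell. Of 24 interferon gamma targets 18 rose and 0 fell (median log2 fold change 0.64, against 0.06 over all genes). They included Nos2, inducible nitric oxide synthase (1326 and 820 CPM against 237 and 120 CPM in antibody sections, 704 and 687 CPM against 145 and 209 CPM in ICI-alone sections; 2.32 ± 0.17, edgeR adjusted p = 6.81e-05), the GTPase genes Gbp5 (1.13) and Ifi47 (1.14), and Ciita, the activator of MHC class II genes (0.85). In receptor signalling 8 of 12 rose and 1 fell, led by Socs1 (1.59 ± 0.13, edgeR adjusted p = 7.03e-05), with Ptpn6 (1.02), Jak2 (1.06) and Irf1 (0.94). The 1 that fell was Ptpn11, the phosphatase SHP-2 (-0.58), named after its value was seen.

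Inducers of Ifng rose in 12 of 15 cases and fell in 1, beside 22.2% risen and 22.1% fallen over all genes. The 1 that fell was Il15 (log2 fold change -1.38, edgeR adjusted p = 0.000447), named after its value was seen. The IL-12 receptor genes Il12rb1 (log2 fold change 1.38) and Il12rb2 (1.65), Runx3, a transcription factor of cytotoxic cells (1.36), and Il12a (1.81) led the list, with edgeR adjusted p of 0.000131 to 0.000211. All 11 T cell genes rose (Cd3d 1.30, Cd2 1.34, Cd5 1.49, Cd3e 1.12), as did 6 of 8 cytotoxic genes (Gzmb, granzyme B, 2.11; Prf1, perforin, 1.63). Other lymphocyte chemokine axes had 15 of 16 risen, among them Ccl3 (2.68), Ccl17 (2.42), Ccl4 (2.36) and Ccl22 (2.05). All 13 genes of TNF and NF-kB rose (Tnf 1.81, Il1b 2.18, Tnfaip3 1.40, Icam1 1.17).

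Other cells moved with them, beside 22.2% of genes risen and 22.1% fallen over all genes tested. Of the macrophage and monocyte list 6 of 9 rose, with Cd14 (1.91) and Itgam (1.36), and 1 fell, Mrc1, the mannose receptor of resident macrophages (-0.89). Dendritic cell genes rose in 6 of 9 cases (Itgax 1.80, Batf3 1.21) and neutrophil genes in 7 of 8 (Csf3r 1.19). All 7 cardiomyocyte genes fell (Ryr2, the calcium release channel, -1.69; Tnni3, cardiac troponin I, -1.84), and 5 of 6 endothelial genes fell (Tie1 and Kdr among those of smallest p). In type I interferon genes 10 of 16 rose and 0 fell (median 0.44; Oasl2 0.93, Rsad2 0.82). Of 6 B and plasma cell genes tested 0 rose and 1 fell (Mzb1, -1.03), and of 6 fibroblast genes 1 rose and 3 fell. The part of this cell makeup in the ligand levels was not tested beyond the classes of T cell UMIs above.

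The levels fell off with distance from Ifng spots, counted in steps on the grid and scaled by library size alone. Cxcl9 had 55.8 and 68.4 CPM in Ifng spots, 35.8 and 47.1 CPM at 1 step and 0.651 and 4.72 CPM at 5 or more steps in the antibody sections. In the ICI-alone sections it had 20.0 and 18.7 CPM, then 15.1 and 16.9 CPM, then 2.22 and 2.77 CPM. Cxcl10 had 529 and 627 CPM at 0 steps and 8.62 and 70.2 CPM at 5 or more in the antibody sections, and 376 and 467 CPM, then 35.7 and 87.1 CPM, in the ICI-alone sections. The profiles of the ligands declined at every distance in all 4 sections. Far from Ifng spots antibody replicate 1 had the least of both ligands.

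**Figure D5:**
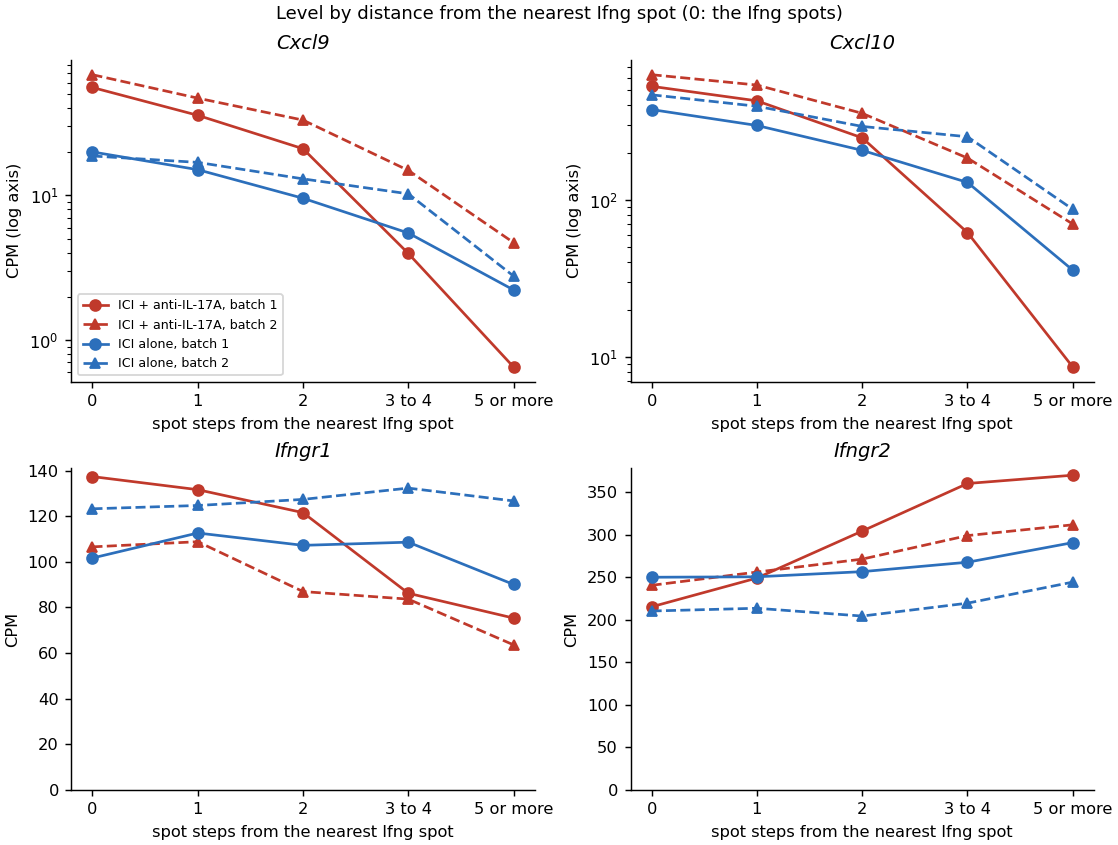
Library-size CPM of the ligands (top, log axes) and receptor subunits (bottom, from 0) by steps from the nearest Ifng spot, for antibody sections (red) and ICI-alone sections (blue), circles for batch 1 and triangles for batch 2. Cxcl9 declines from 55.8 and 68.4 to 0.651 and 4.72 CPM in the antibody sections and from 20.0 and 18.7 to 2.22 and 2.77 CPM with ICIs alone, while Ifngr2 is lowest in or near Ifng spots.

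Ifngr1 had 137 and 107 CPM at 0 steps and 75.3 and 63.5 CPM at 5 or more in the antibody sections, and 102 and 123 CPM, then 90.0 and 127 CPM, in the ICI-alone sections, so it was lower far from Ifng spots in the antibody sections and showed no common course in the ICI-alone sections. Ifngr2 had 215 and 241 CPM at 0 steps and 370 and 312 CPM at 5 or more in the antibody sections, and 250.1 and 210.4 CPM, then 291 and 244 CPM, in the ICI-alone sections. Over the same rings the summed cardiomyocyte level was 18252 and 29182 CPM at 0 steps and 83884 and 70938 CPM at 5 or more in the antibody sections, and 12270.3 and 6727 CPM, then 61665 and 43647 CPM, with ICIs alone, and T cell and macrophage sums declined outward. The part of these markers in the profiles was not tested.

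Spots exactly 1 step from an Ifng spot, themselves without Ifng after thinning, were tested against spots at 3 or more steps. Full counts were tested, and in these the neighbours were not free of Ifng. By library size they had 31.7 and 24.2 CPM of it in the antibody sections and 14.6 and 13.9 CPM in the ICI-alone sections. Ifng spots held 56.9% and 65.1% of all Ifng UMIs in the antibody sections, and 47.2% and 42.1% with ICIs alone. Both ligands were higher beside Ifng spots, Cxcl9 by 2.26 ± 0.42 (edgeR adjusted p = 0.00876) and Cxcl10 by 2.13 ± 0.41 (adjusted p = 0.00953) on the log2 scale, in all 4 sections. Ifngr2 fell there (-0.47 ± 0.14, adjusted p = 0.0330), while Ifngr1 (0.17, adjusted p = 0.242) and Cxcr3 (0.73 ± 0.27, adjusted p = 0.0618) did not pass. Over all 13644 genes 25.6% rose and 25.9% fell (4847 and 2508 genes with library size alone, against 3497 and 3540 with TMM). Interferon gamma targets rose in 20 of 24 cases (median log2 fold change 0.91, against 0.02 over all genes), with Gbp5 at 1.43, Gbp4 at 1.35, Nos2 at 3.64 and Cd274 at 1.46. Cxcr3 passed without ICI-alone replicate 2 (0.94, adjusted p = 0.0409), without thinning (0.87, 0.0265) and with library size alone (0.92, 0.0489). The Ifngr2 call was lost without ICI-alone replicate 1 or antibody replicate 2 and with library size alone (adjusted p = 0.0929, 0.0875 and 0.0722).

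Whether these relations differed by treatment was tested as an interaction. For Ifng spots, none of 14274 genes (0%) passed by edgeR, with 1478 at an unadjusted p under 0.05, and for neighbouring spots none of 13644 (0%), with 1196. The difference of the Ifng-spot effect, antibody minus ICI alone on the log2 scale, was 0.52 ± 0.28 for Cxcl9 (adjusted p = 0.557), 0.23 ± 0.25 for Cxcl10 (0.796), 0.37 ± 0.16 for Ifngr1 (0.481), -0.44 ± 0.22 for Ifngr2 (0.522) and 0.85 ± 0.50 for Cxcr3 (0.586). For the neighbours it was 1.23 ± 0.64 for Cxcl9 (0.619) and 1.19 ± 0.63 for Cxcl10 (0.625).

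These tests depended on single sections. Without antibody replicate 2 the neighbour difference passed for Cxcl9 (2.34, edgeR adjusted p = 0.0213) and Cxcl10 (2.11, 0.0198), and the Ifng-spot difference passed for Ifngr2 (-0.66, 0.0211). The numbers of genes passing were then 1006 and 1106. Within antibody replicate 1 the neighbours stood above the distant spots by 3.98 for Cxcl9 and 3.67 for Cxcl10 on the log2 scale, against 2.00 and 1.83 in antibody replicate 2, 1.98 and 1.94 in ICI-alone replicate 1 and 1.33 and 1.17 in ICI-alone replicate 2.

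Spots with only one of the ligands were compared last, to see what accompanies each. After thinning, 21 and 43 of 127 and 232 Cxcl9 spots in the antibody sections lacked Cxcl10. In the ICI-alone sections 29 and 28 of 76 and 114 did. These were set against the 542 and 908, and 700 and 1161, spots with Cxcl10 alone. With all UMIs counted, 23 of 363 and 35 of 488 Cxcl9 spots lacked Cxcl10 in the antibody sections, and 17 of 380 and 15 of 464 with ICIs alone. Full counts were summed over the thinned classes, so Cxcl9-only spots can hold Cxcl10 UMIs. This limits what the comparison can separate. Of 12273 genes tested, 1 passed by edgeR (0.00815%), with 672 at an unadjusted p under 0.05. It was Rnd1, named after its value was seen: 59.5 and 32.7 CPM in Cxcl9-only spots against 80.3 and 55.0 CPM in Cxcl10-only spots of the antibody sections, and 66.3 and 89.2 against 113 and 158 CPM with ICIs alone (log2 fold change -0.73 ± 0.11, adjusted p = 0.0297).

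No gene of the axis passed between these spots. Ifng had -0.26 ± 0.23 (edgeR adjusted p = 0.971), Ifngr1 0.07, Ifngr2 0.04 and Cxcr3 0.12. Interferon gamma targets passed in 0 of 24 cases (median log2 -0.19, Ifi47 -0.39 and Gbp5 -0.41), type I interferon genes in 0 of 16 (median -0.19) and macrophage genes in 0 of 9 (median 0.07). With classes taken from all UMIs in place of thinned ones, 658 genes passed and Ifng was lower in Cxcl9-only spots (-1.95, adjusted p = 0.0257), with 15 to 35 such spots a section.

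Finally, the genes most like each leading member over the tissue were found by the mean Pearson correlation of log2(CPM + 10) over 77 to 95 tiles a section. Tiles of a section share its library, depth and cell makeup, and the values are descriptions. For Ifng, among 8755 genes of at least 10 CPM, they were Ccl4, a chemokine (0.83), Clec4e, a myeloid C-type lectin receptor (0.83), Tnfrsf9, the costimulatory receptor 4-1BB (0.82), Nos2 (0.82) and AA467197 (0.82). Cxcl9 (0.73) and Cxcl10 (0.72) came lower, and Cxcr3 reached 0.24. In their lowest sections Cxcl9 had 6.92 CPM and Cxcr3 1.92 CPM, under the limit of 10 CPM, so neither was ranked. Such levels also lie below the 10 added before the log, which limits what these correlations can show. Ifng correlated with Ifngr1 at 0.75 and 0.45 in the antibody sections and at 0.24 and -0.19 in the ICI-alone sections, and with Ifngr2 at -0.80 and -0.36, against -0.47 and -0.48.

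Cxcl9 was most like Acod1, the enzyme that makes itaconate (0.88), Gbp4 (0.87), Tnf (0.87), Cd40, a receptor of antigen-presenting cells (0.87), and Serpina3f (0.86), and it correlated with Cxcl10 at 0.85. Cxcl10 was most like Serpina3g (0.94) and the interferon-induced Gbp5 (0.93), Ifi47 (0.93), Socs1 (0.93) and Gbp2 (0.93). No gene was among the first 5 for more than 1 of these 3 genes.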

How the data were processed

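Per the file headers, the matrices deposited by the authors hold UMI counts, not normalized, for spots over tissue, from Space Ranger 2.1.0, with barcodes, gene names, grid positions and image scale factors (not used). Per the submitters' processing notes the build was mm10, and Seurat 5.1.0 is named with no role. The probe set is not stated in what was used here, and levels of different genes are not compared. The authors also deposited Moran's I, a score per gene, with p-values (not used) and UMI totals, which equalled the matrix sums in 24 of 24 gene and section pairs checked.

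The section was the unit of replication. UMIs were summed per section or per spot class, filtered with filterByExpr, scaled by TMM and tested with the quasi-likelihood test of edgeR 4.0.16 (R 4.3.3, limma 3.58.1), Benjamini-Hochberg adjusted over all genes, threshold 0.05. Spot classes came from spots thinned to 5000 UMIs (4 to 105 spots a section were below that and left out), and full counts were tested. The test script was tested on simulated data. Batch numbers are given by the labels and pair the sections; deviations of same-batch sections correlated at 0.174 over 18817 genes. Alternatives were a replicate block, DESeq2 1.42.0 and its size factors, library size alone, no filter, 10 CPM in 2 sections, equal totals, no atrial-rich spots (over 1% of UMIs on Nppa, Myl4, Myl7, Sln and Bmp10), thinning to 2000 UMIs, none or another seed, at least 2 UMIs, and leaving out each section. Atrial-rich spots numbered 2 and 172 in the antibody sections and 63 and 536 in the ICI-alone sections. The genes used summed to 417 and 7705 CPM in the antibody sections, against 3063 and 5460 CPM. Over whole sections Myl7 (log2 fold change 9.52), Myl4 (7.07) and Sln (6.95) were higher with the antibody without passing, and Nppa was not (-0.56). Such spots need not be atrial tissue in the ICI-alone sections, which was not tested. Intervals are 95% Wilson intervals. Python 3.11.15, numpy 2.4.6, scipy 1.17.1, pandas 2.3.3 and matplotlib 3.10.9 were used.

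The genes named are the 6 measured genes, up to 4 of smallest p per list and comparison, and 5 per likeness search (tiles of 6 array rows by 12 array columns with at least 10 spots). A gene that this rule names is not reported here. Members and lists were chosen with earlier results of these data known.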

Additional observations from a re-analysis of the deposited data

Results flagged for a closer look

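Ifngr1 is listed because it moved one way in both antibody sections and the other way in both ICI-alone sections. In Ifng spots over other spots its log2 difference was 0.30 and 0.22 in antibody replicates 1 and 2 and -0.10 and -0.12 in ICI-alone replicates 1 and 2. The TMM-scaled levels were 128 and 98.9 CPM in Ifng spots and 104 and 85.0 CPM in other spots of the antibody sections, and 103 and 118 CPM against 110 and 128 CPM in the ICI-alone sections. Scaled by library size alone, ICI-alone replicate 1 had 101.6 CPM in Ifng spots and 101.0 CPM over the whole section. Its downward move thus depended on the scaling. In ICI-alone replicate 2 these values were 123.2 and 128.2 CPM. The difference between treatments was 0.37 ± 0.16 on the log2 scale (unadjusted p = 0.0470, adjusted p = 0.481 over all genes with edgeR). It kept its sign under all 10 alternatives (0.27 to 0.51, adjusted p from 0.138 to 1.00) and passed under none.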

How the results depend on the processing

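Ifng and Cxcl9 kept their direction over whole sections under all 12 alternatives each (log2 0.99 to 1.25 and 0.72 to 1.47, adjusted p from 2.05e-05 to 0.0598 and from 0.00149 to 0.137), and each lost its call in 1. The whole-section count was 3839 with the replicate block, 821 with the 10 CPM filter and 1480 without atrial-rich spots, and 329 to 4479 without single sections. The block changed no call among the 6 genes. Without single sections Cxcl10 ran from -0.25 to 0.46 and Cxcr3 from -0.39 to 0.17, both turning sign without ICI-alone replicate 1 (-0.16 and 0.10) or antibody replicate 2. Cxcr3 also turned to 0.020 with library size alone and 0.0098 at equal totals, never past the threshold, and had no value under the 10 CPM filter. With library size alone the median of all genes moved from 0.06 to 0.19 for Ifng spots and from 0.02 to 0.22 for their neighbours.

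For Ifng spots the count was 4173 among spots with a T cell UMI, and 3293 to 6261 for the neighbours without single sections. Ifngr1 in Ifng spots turned to -0.030 without a filter and -0.037 among spots with a T cell UMI, and ran from -0.0096 (without antibody replicate 1) to 0.13 without single sections, all uncalled. The Ifng-spot interaction, at 0 genes, gave 2 with library size alone, 54 without a filter, 166 with 2000 UMIs, 1 without thinning, 4 with at least 2 UMIs, and 0 to 1106 without single sections. There Cxcl10 ran from -0.064 (without antibody replicate 1) to 0.54 without single sections and turned to -0.33 among spots with a T cell UMI. The neighbour interaction gave 5 genes without thinning and 0 to 1006 without single sections. Cxcl9-only against Cxcl10-only spots gave 18 genes without a filter, 5 with 2000 UMIs, 658 without thinning, 74 with at least 2 UMIs and 0 to 25 without single sections; Ifngr1 turned to -0.059 and -0.15 there (without antibody replicate 2 and without thinning) and Cxcr3 to -0.13 (without antibody replicate 2). The causes were not tested.

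The difference in the share of Ifng spots, 2.13 percentage points, was 1.19 with 2000 UMIs, 2.82 with another seed and 1.17 without thinning. For Cxcl9 it was 1.62 with 2000 UMIs and 1.22 without thinning, and for Cxcl10 -15.0 without thinning, where the sections differ in depth. The difference in the Cxcl9 co-detection ratio, 3.37, was 1.47 with another seed and 1.75 without antibody replicate 1. The main limits are 2 sections a group, the low counts of Cxcr3 and of Cxcl9 in ICI-alone Ifng spots, and spots that mix several cells.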

Other observations

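Ifng spots lay a median of 5 and 3 steps from the edge in the antibody sections, where all spots lay 7 and 3 steps from it, and 6 and 6 steps in the ICI-alone sections, where all spots lay 4 and 4 steps from it. Cxcl9 spots lay at 4 and 3 steps in the antibody sections and 5 and 6 steps in the ICI-alone sections. Within 2 steps of the edge lay 19.9% and 49.6% of Ifng spots in the antibody sections, where 17.4% and 40.5% of all spots did. In the ICI-alone sections 21.5% and 23.2% of Ifng spots lay there, where 30.1% and 28.1% of all spots did. The edge here is the nearest grid position not under tissue, cavities and gaps included, so it need not be the outer surface. No test was run.

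Of 16 type I interferon genes tested over whole sections, where 3.03% of all genes rose and 8.81% fell, 2 rose with the antibody, Ifit3 (57.1 ± 19.5 CPM in antibody sections and 17.3 ± 5.64 CPM in ICI-alone sections, log2 fold change 1.72, edgeR adjusted p = 0.0235) and Rsad2, viperin (0.56, adjusted p = 0.0475). The 2 that fell were Oas1a (-0.79, adjusted p = 0.0258) and the receptor gene Ifnar1 (-0.69, adjusted p = 0.0286).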
